A study of Mus musculus with 9 samples.

Results

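CXC chemokines and their receptors were described in dissociated brain tissue of 5 mice with EP ZFTA-RELA tumors and of 4 control mice, measured cell by cell in droplets with 5′ RNA-seq libraries. The genes were chosen by symbol: the ligands Cxcl1, Cxcl2, Cxcl9, Cxcl10, Cxcl12, Cxcl13, Cxcl14 and Cxcl16, and the receptors Cxcr4 and Ackr3, which are 10 of the 32285 mouse genes counted. Tumor-bearing mice had the genotype NestinCreERT2;Fus1, in which a Cre recombinase under Nestin control switches on the ZFTA-RELA fusion in neural progenitors. Control mice had the genotype NestinCreERT2;TdT and so carried the same Cre driver, with a TdT reporter allele that the records list for controls only. All mice were 6 to 8 weeks old. Tissue was macrodissected without choroid, dissociated with an enzymatic kit, cleared on Percoll and sorted for DAPI- Ter119- cells, a gate that removes dead cells and red cells. The records number the libraries of a group as replicates but do not say that each came from a separate animal, so p-values measure the spread between these samples. Each is called a mouse below.

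CXC chemokines are small secreted proteins that steer leukocytes and progenitor cells through G protein-coupled receptors. Cxcl1 and Cxcl2 recruit neutrophils and are switched on by NF-kappa-B, whereas Cxcl9 and Cxcl10 are induced by interferons and attract activated T cells. Cxcl12 is made by brain endothelium, mural cells and some neurons, signals through Cxcr4 and is removed by the scavenger receptor Ackr3.

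The promoters of Cxcl1, Cxcl2 and Cxcl10 are shown because the motifs of the regulators named above lie in them. These 3 ligands were at 2.70 CPM (transcript counts scaled to a total of 1000000) or less in every control and higher in every tumor. The same was true of Cxcl16, Cxcr4 and Ackr3. Since the 3 were chosen by their motifs, the presence of motifs beside these levels supports nothing. The windows run from 250 to 31 bases before the RefSeq start in GRCm38.p6, written 5′ to 3′ on the strand of the gene. Capitals mark matches to the NF-kappa-B consensus, and in Cxcl10 also a match on the opposite strand to the motif TTTC, any 2 bases, TTTC, the core of the interferon-stimulated response element. The windows lie at chr5:90890995-90891214 on the plus strand, chr5:90903649-90903868 on the plus strand and chr5:92348920-92349139 on the minus strand.
Cxcl1: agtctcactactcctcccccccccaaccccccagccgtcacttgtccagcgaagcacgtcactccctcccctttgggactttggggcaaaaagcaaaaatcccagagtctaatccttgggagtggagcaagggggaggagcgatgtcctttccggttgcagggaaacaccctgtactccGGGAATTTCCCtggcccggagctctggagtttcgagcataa
Cxcl2: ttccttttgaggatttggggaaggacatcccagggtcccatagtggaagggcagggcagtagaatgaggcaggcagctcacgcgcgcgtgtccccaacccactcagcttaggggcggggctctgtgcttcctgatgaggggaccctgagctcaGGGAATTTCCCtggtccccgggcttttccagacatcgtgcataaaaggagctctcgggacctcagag
Cxcl10: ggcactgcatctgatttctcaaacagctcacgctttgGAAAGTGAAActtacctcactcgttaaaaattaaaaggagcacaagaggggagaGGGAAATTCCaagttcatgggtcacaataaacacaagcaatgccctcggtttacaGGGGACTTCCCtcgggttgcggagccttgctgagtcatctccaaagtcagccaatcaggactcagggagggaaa

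The same capitalised 11 bases stood in Cxcl1, 71 to 61 bases before the start, and in Cxcl2, 97 to 87 bases before it. In Cxcl10 the interferon motif lay 213 to 204 bases before the start, and the NF-kappa-B matches lay at 159 to 150 and 104 to 94. Both strands were searched and overlapping matches counted, which gave 2 NF-kappa-B matches in Cxcl1, 2 in Cxcl2 and 4 in Cxcl10. Windows were found for 9 of the 10 genes in the RefSeq table, all but Cxcl16. Of the other 6, Cxcl14 had 1 match to the interferon motif, 172 to 163 bases before the start, and none held the NF-kappa-B consensus. Among all 32851 promoter windows of this length, 863 (2.63%) held the interferon motif and 2083 (6.34%) held the NF-kappa-B consensus. These matches are letters in a window and no measurement of binding. In the GENCODE vM21 annotation of the same build, Cxcl1, Cxcl2, Cxcl9, Cxcl10 and Cxcl13 lie on chromosome 5 between 90891241 and 95961068. Cxcl12 lies at chr6:117168535-117181367, Cxcl14 at chr13:56288643-56296551 and Cxcl16 at chr11:70453983-70459984. The receptor genes are both on chromosome 1, Cxcr4 at chr1:128588199-128592293 and Ackr3 at chr1:90203980-90216751.

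After filtering, 19568 control and 15745 tumor cells remained, 3987 to 5907 per control and 1577 to 5114 per tumor. The cells of a control held 12938561 to 21502349 UMIs (unique molecular identifiers, each standing for 1 captured transcript) and those of a tumor 5900868 to 37615459. Median UMIs per cell ranged from 2057 to 4194 in controls and from 2068 to 6524.5 in tumors. In these cells, UMIs on the fusion sequence numbered 0 in every control and 6 to 698 in the tumors. Pairs of libraries shared 1 to 10 kept barcodes, at most 0.262% of the smaller library, over the 28 pairs that could be compared. Neuron-like cells made up 64.7% to 75.5% of the cells of each control and 0% to 4.63% of those of each tumor, microglia-like cells 2.38% to 2.61% and 3.79% to 20.6%. In sums over all cells, more cells of a type and more RNA per cell cannot be told apart.

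Over all cells, tumors held more Cxcl1, Cxcl2, Cxcl10, Cxcl13, Cxcl14, Cxcl16, Cxcr4 and Ackr3 than controls, 8 of the 10 genes, and Cxcl9 and Cxcl12 did not pass the test. UMI counts were summed per mouse and compared by the quasi-likelihood test of edgeR with Benjamini-Hochberg adjustment over all genes and a threshold of 0.05. All 10 passed the filter on low counts. Cxcl1, Cxcl2 and Cxcr4, with 10, 0 and 24 UMIs in all controls, passed it only through the tumors. Cxcl9, Cxcl10 and Cxcl13 had 47, 90 and 49 UMIs in all controls. Too few controls reached the filter's limit for them, so they also needed the tumors to pass it. The number called therefore supports nothing about the family. The background was high, since 10851 of 17594 genes passed (61.7%, with 32.3% higher and 29.4% lower in tumors). The median log2 fold change (tumor over control) was 4.38 over the 10 genes, also with Cxcl2 at its lower bound, and 0.04 over all genes tested. It is a description, since the genes were chosen with earlier results of these data known. Genes that needed the tumors to pass the filter were also bound to lie high. The median over the 10 genes therefore cannot be weighed against that over all genes.

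Levels are given in CPM of the cells summed per mouse, in the order of replicate numbers. Values for the free RNA of a library, meaning its 3000 smallest deposited barcodes (medians of 559 to 1338 UMIs, so some may be small cells), are given beside the genes that they touch. The plot of all cells shows the levels per mouse. The share of all genes tested whose tumors stand above every control was not counted, so such a separation supports nothing about the family.

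**Figure D1:**
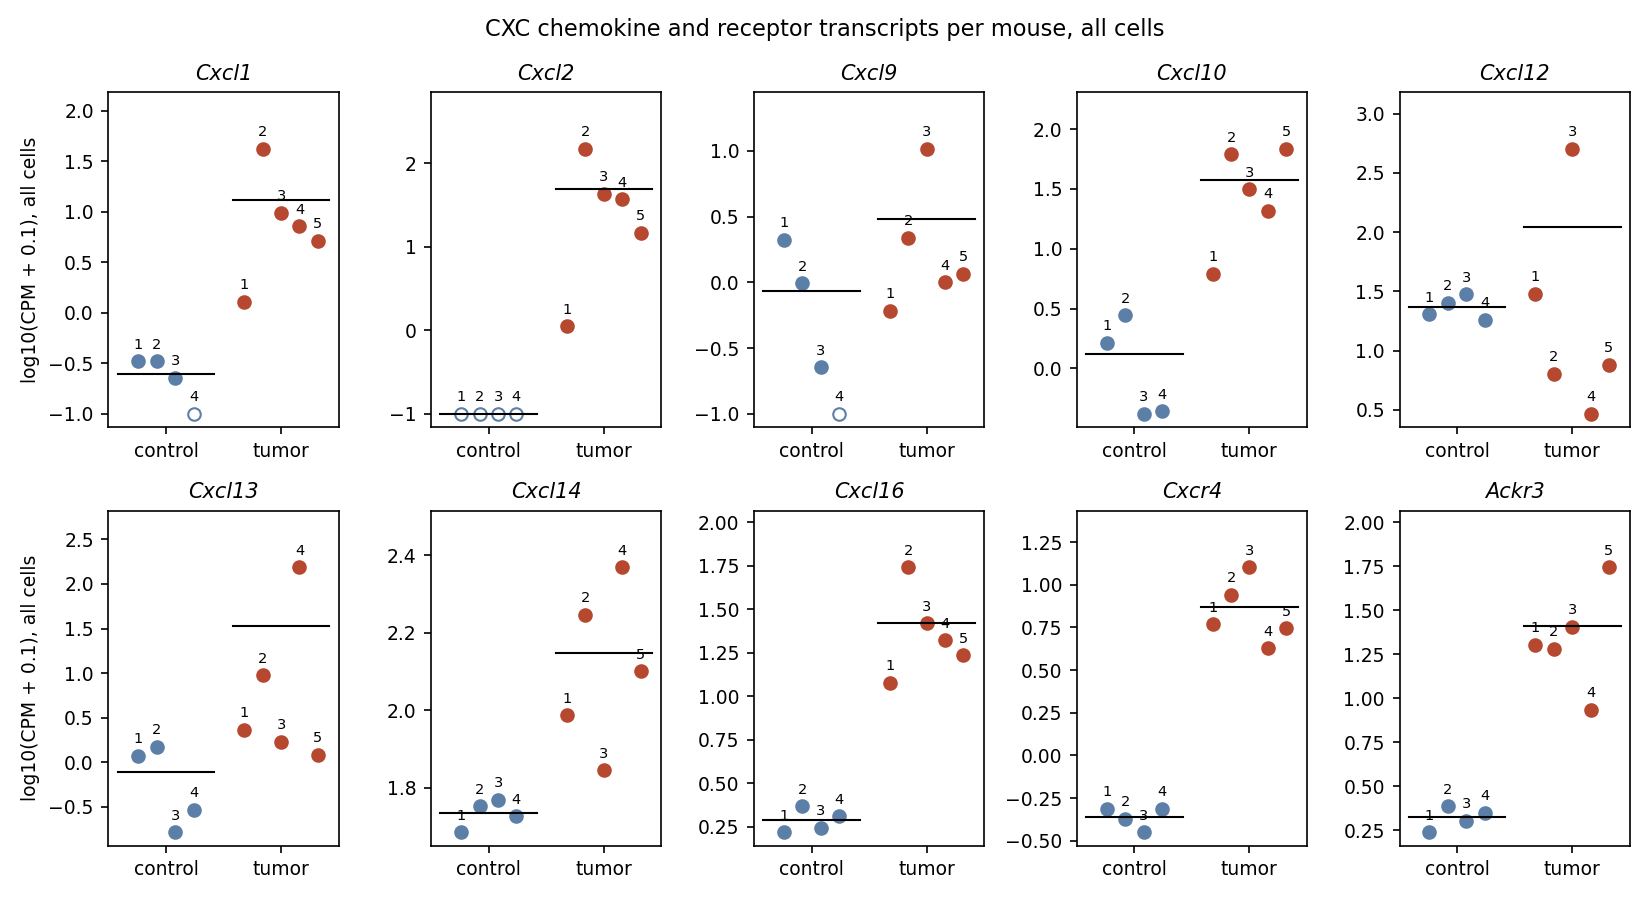
CXC chemokine and receptor transcripts per mouse in the sum of all cells, as log10(CPM + 0.1) on the vertical axis, with 4 control mice (left) and 5 tumor mice (right) numbered by replicate. The lines stand for group means and open points for 0 UMIs. All 5 tumors lie above every control for Cxcl1, Cxcl2, Cxcl10, Cxcl14, Cxcl16, Cxcr4 and Ackr3, whereas 1 tumor stands far above the rest for Cxcl12 and 1 for Cxcl13.

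Cxcl1, a neutrophil attractant that acts through Cxcr2, was at 0.232, 0.233, 0.127 and 0 CPM in controls 1 to 4. In tumors 1 to 5 it was at 1.19, 41.9, 9.77, 7.1 and 5.1 CPM. The groups did not overlap, and tumor 2 was the highest. Tumors were higher by 6.81 ± 1.28 (SE) on the log2 scale, with an edgeR adjusted p of 0.00164. It was 5.51 without tumor 2 (edgeR adjusted p = 0.00160).

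Cxcl2, which acts through the same receptor, had 0 UMIs in each of the 4 controls and 6, 2489, 293, 1390 and 236 UMIs in tumors 1 to 5. The tumor values correspond to 1.02, 147.7, 42.7, 37.0 and 14.7 CPM. All tumors were above the controls, and tumor 2 was again the highest. Against a floor of 3 UMIs over all control cells (0.0423 CPM), the tumor mean of 48.6 CPM was at least 1148-fold higher, with an edgeR adjusted p of 0.00356. Without tumor 2 the tumor mean was 23.8 CPM, at least 563-fold higher (edgeR adjusted p = 0.00486).

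Free RNA of tumors 1 to 5 held 1.14, 20.3, 4.16, 2.33 and 6.64 CPM of Cxcl1. The control free RNA held no UMI of it. For Cxcl2 the free RNA values were 0, 51.4, 8.32, 18.6 and 8.30 CPM in the tumors and 0 to 0.499 CPM in the controls. Tumor 2, highest in its cells, was thus also highest in its free RNA for both genes.

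The cells that held these ligands differed from tumor to tumor. In tumor 2, mural-like cells (pericytes and smooth muscle) held 365 of the 707 Cxcl1 UMIs, a level of 498 CPM in 92 cells. These UMIs lay in 27 of the cells, and the 5 highest held 60.5% of them. For Cxcl2 the 5 highest mural-like cells of tumor 2 held 81.0%. In tumor 4, mural-like cells were at 118 CPM of Cxcl1, with 93.0% of the UMIs in 5 cells, and in tumor 3 at 4.85 CPM. Endothelial-like cells held 39 of the 67 Cxcl1 UMIs of tumor 3. Controls had at most 1 mural-like cell, so this class has no control level. Over tumors 2, 3 and 4 the mural-like mean was 207 CPM of Cxcl1 and 111 CPM of Cxcl2, and 61.5 and 5.18 CPM without tumor 2. Tumor 5 had 15 such cells, too few for the mean. They held 17 UMIs of Cxcl1 (228 CPM) and 34 of Cxcl2 (455 CPM), each in 3 cells.

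Cxcl2 in tumor 2 came from neural-progenitor-like cells (1060 of 2489 UMIs, 160 CPM), macrophage-like cells (465 UMIs, 311 CPM), microglia-like cells (238 UMIs, 170 CPM) and mural-like cells (237 UMIs, 324 CPM). Its 22 neutrophil-like cells held 120 UMIs (1272 CPM), in 10 of them. In tumor 3, microglia-like cells held 247 of the 293 UMIs. In tumor 4, neural-progenitor-like cells held 755 of 1390 UMIs at 34.7 CPM, macrophage-like cells 178 UMIs at 292 CPM and microglia-like cells 222 UMIs at 192 CPM. Neural-progenitor-like cells thus held 42.6% of the Cxcl2 UMIs and 39.3% of all UMIs in tumor 2. In tumor 4 they held 54.3% and 57.8%, near their share of the RNA.

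In neural-progenitor-like cells, Cxcl2 UMIs were seen in 322 of 1140 cells of tumor 2 (median depth 5174.5 UMIs), against 6 of 115 oligodendrocyte-like cells of that tumor (4176 UMIs), a class that is not a usual source. Of 138 neural-progenitor-like cells of tumor 2 with a Cxcl1 UMI, 96 also had a Cxcl2 UMI. In tumor 4 the same held for 18 of 35, where 296 of all 2969 such cells had a Cxcl2 UMI. The genes lie at chr5:90891241-90893115 and chr5:90903871-90905938.

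**Figure D2:**
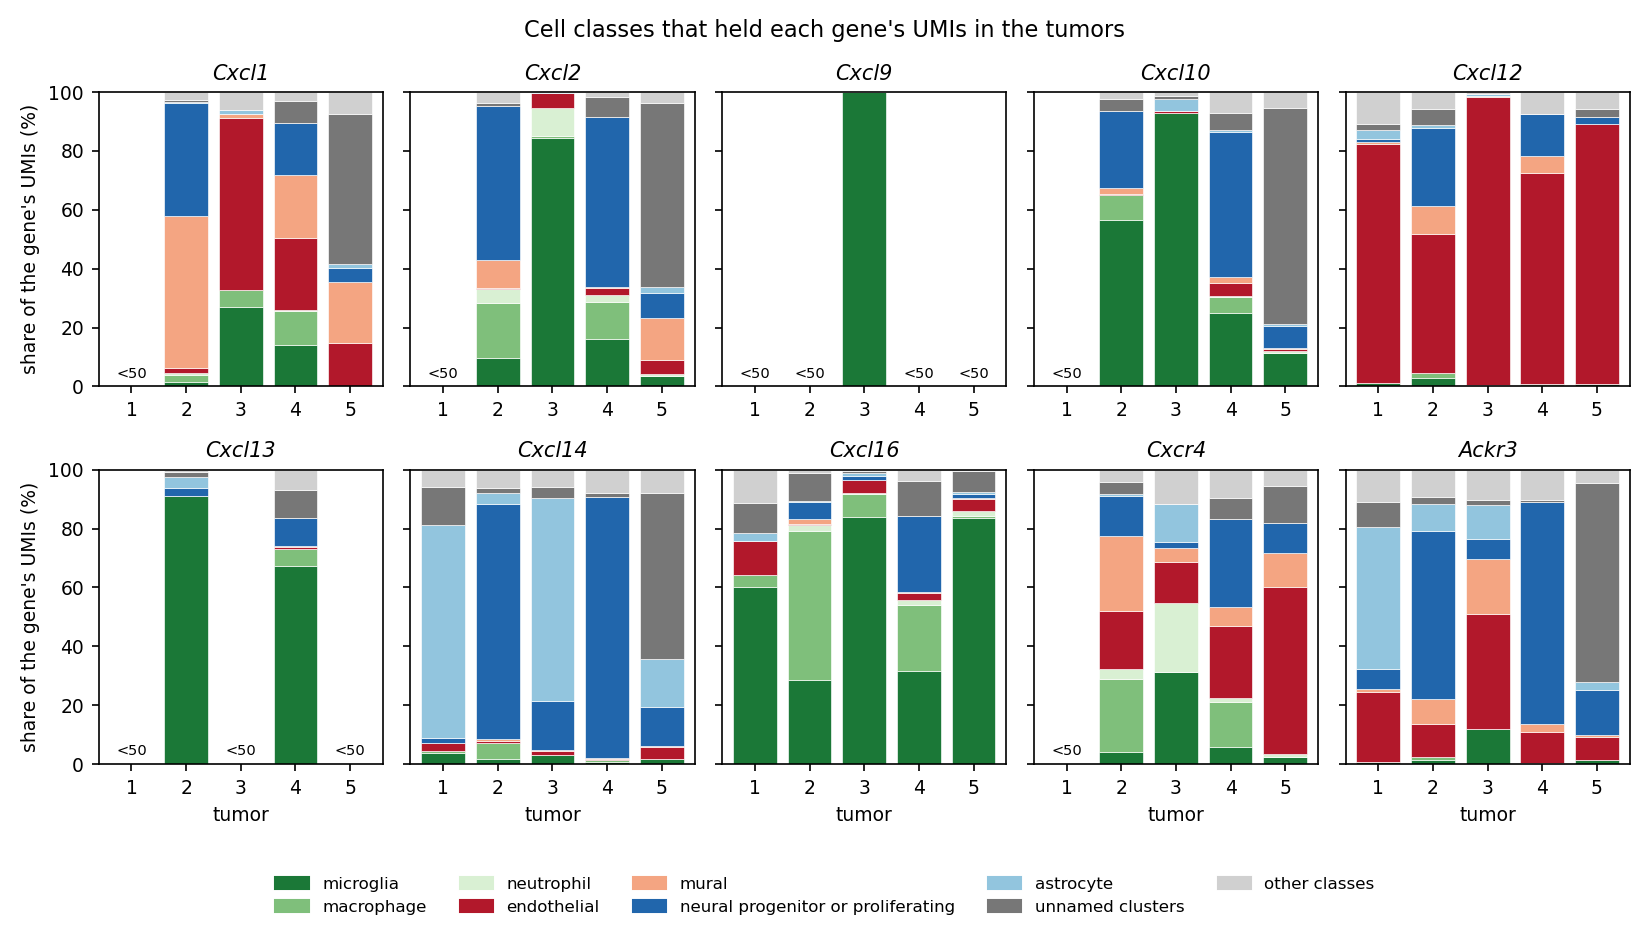
Share of each gene's UMIs (vertical axis, %) held by each class of cells in tumors 1 to 5, with bars stacked to 100% and "<50" where a tumor held too few UMIs. Microglia-like cells held most Cxcl2, Cxcl10 and Cxcl16 UMIs of tumor 3, and neural-progenitor-like cells most Cxcl14 UMIs of tumors 2 and 4.

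Cxcl10, an interferon-induced ligand of Cxcr3, was at 1.55, 2.70, 0.317 and 0.339 CPM in controls 1 to 4. It was at 6.1, 61.8, 31.4, 20.7 and 68.1 CPM in tumors 1 to 5. Every tumor was above every control, with tumors 2 and 5 the highest. The difference on the log2 scale was 5.25 ± 0.95 (SE), with an edgeR adjusted p of 0.00139. It was 6.05 without control 2 (edgeR adjusted p = 0.00315). Free RNA held 0 to 2.99 CPM of Cxcl10 in controls and 7.98 to 33.7 CPM in tumors.

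Cxcl9, the other Cxcr3 ligand measured, was at 2.01, 0.884, 0.127 and 0 CPM in controls and 0.508, 2.08, 10.2, 0.904 and 1.06 CPM in tumors. The groups overlapped, and 2 tumors were above every control. The log2 fold change of 2.12 ± 1.15 (SE) did not pass the test (edgeR adjusted p = 0.134). It was 1.06 without tumor 3 and 3.17 without control 1, and neither passed (edgeR adjusted p = 0.369 and 0.0700). In control 1, 21 of the 26 UMIs of Cxcl9 lay in 1 neutrophil-like cell, and in tumor 3, 65 of the 70 lay in 1 microglia-like cell.

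Cxcl13, which guides B cells through Cxcr5, was at 1.08, 1.40, 0.0635 and 0.194 CPM in controls. In tumors it was at 2.20, 9.32, 1.60, 153 and 1.12 CPM. Tumor 4 stood apart, and 4 of the 5 tumors were above every control. On the log2 scale the difference was 6.06 ± 1.88 (SE), with an edgeR adjusted p of 0.0187. Without tumor 4 it was 2.75 (edgeR adjusted p = 0.0363), and without control 2 it was 6.76 (edgeR adjusted p = 0.0375). Without control 4 it was 5.72 and did not pass (edgeR adjusted p = 0.0526), nor did it by limma voom, at 4.91 (adjusted p = 0.0878). Free RNA of tumor 4 held 171.5 CPM of Cxcl13, against 0.26 to 3.12 CPM in the other 8 libraries.

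Cxcl16, a chemokine that is made both as a membrane protein and in soluble form and binds Cxcr6, was at 1.55, 2.23, 1.65 and 1.94 CPM in controls. It was at 11.9, 54.8, 26.1, 20.8 and 17.1 CPM in tumors. The groups did not overlap, with a log2 fold change of 4.14 ± 0.54 (SE) and an edgeR adjusted p of 0.000324.

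Cxcl14, a ligand made by astrocytes and neurons of the normal brain, was at 48.3, 56.5, 58.7 and 53.2 CPM in controls and 96.9, 176, 69.9, 233 and 126 CPM in tumors. Every tumor was above every control, with tumor 4 the highest and tumor 3 the lowest of the tumors. The log2 fold change was 1.71 ± 0.42 (SE), with an edgeR adjusted p of 0.00601. Free RNA held 86.9 to 109.7 CPM of Cxcl14 in controls, above the level in their cells, and 119.8 to 202.3 CPM in tumors.

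Cxcl12, the ligand of Cxcr4 and Ackr3, was at 20.1, 25.3, 29.9 and 18.1 CPM in controls and 30.0, 6.29, 502.7, 2.82 and 7.46 CPM in tumors. Tumor 3 held 3447 of the 3956 UMIs of the tumor group, 3 tumors were below every control, and 2 were above. The log2 fold change of 2.26 ± 1.35 (SE) did not pass the test (edgeR adjusted p = 0.166), and it was -0.87 without tumor 3 (edgeR adjusted p = 0.191) and -0.59 by limma voom. Free RNA of tumor 3 held 162.3 CPM, against 4.43 to 14.5 CPM in the other libraries.

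Cxcr4, the signalling receptor of Cxcl12, was at 0.386, 0.326, 0.254 and 0.387 CPM in controls and 5.76, 8.66, 12.5, 4.15 and 5.47 CPM in tumors. Every tumor was above every control, by a log2 fold change of 4.63 ± 0.41 (SE) and an edgeR adjusted p of 9.28e-05. The control values rest on 24 UMIs in all. Free RNA held 0.32 to 1.0 CPM of Cxcr4 in controls and 1.14 to 14.5 CPM in tumors.

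Ackr3, the scavenger of Cxcl12, was at 1.62, 2.33, 1.90 and 2.13 CPM in controls and 20.0, 19.0, 25.4, 8.51 and 55.3 CPM in tumors. The groups did not overlap, and tumor 5 was the highest. Tumors were higher by 3.92 ± 0.52 (SE) on the log2 scale, with an edgeR adjusted p of 0.000335. In tumor 5, cells of unnamed clusters held 603 of the 890 UMIs, at 81.0 CPM. In tumor 4, neural-progenitor-like cells held 61.2% of the Ackr3 UMIs and 57.8% of all UMIs, at 9.01 CPM.

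Other genes of the family, fixed as a list of 15, gave 7 that could be tested over all cells. Pf4, the platelet factor that myeloid cells also make, was higher in tumors (log2 fold change 3.24, edgeR adjusted p = 0.00756). Ackr1, a chemokine-binding receptor of venular endothelium and red cells, was lower (-1.12, edgeR adjusted p = 0.0226). Its control level of 30.5 to 35.3 CPM was near that of the control free RNA, at 31.4 to 35.9 CPM. Endothelial-like cells held 6 of its 2394 control UMIs, so the drop is not one seen in that class. The part of free RNA was not tested. The other 5 did not pass, among them Cxcl5 at 1.59 and Cxcr6, the receptor of Cxcl16, at -1.58 (edgeR adjusted p = 0.0556 and 0.0861).

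A second list held 12 genes that bind, cut or signal for these proteins, and all were tested over all cells. Of these, 5 were higher, where 32.3% of all genes tested were: Rgs1, a brake on G protein signalling (log2 fold change 6.19, edgeR adjusted p = 0.000694), Gnai2, a G protein subunit of chemokine receptors (3.42, edgeR adjusted p = 0.000229), Hmgb1, which binds Cxcl12 (1.94, edgeR adjusted p = 0.00212), and the sheddases Adam17 and Adam10, which cut Cxcl16 from the membrane (1.51 and 1.19, edgeR adjusted p = 0.000705 and 0.000639). Dpp4, a peptidase that shortens several CXC ligands, was lower (-1.73, edgeR adjusted p = 0.0017). The other 6, Mif, Cd74, Arrb1, Arrb2, Rgs2 and Mmp9, did not pass. Of 12 immediate early and heat shock genes, which dissociation can induce, 10 were higher over all cells, with a median log2 fold change of 4.03 over the list. Their part in the CXC values was not tested.

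Cell classes were named from fixed marker lists on clusters made without the CXC genes and the other lists. Tests were run in microglia-like, astrocyte-like and endothelial-like cells, which had at least 20 cells in 3 or more mice of each group. Oligodendrocyte-precursor-like cells, oligodendrocyte-like cells and cells of unnamed clusters also met this rule and were not tested. In the heat map by class, the highest tumor levels of Cxcl16 were those of microglia-like and macrophage-like cells, and the highest level of Cxcl12 in both groups was that of endothelial-like cells.

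**Figure D3:**
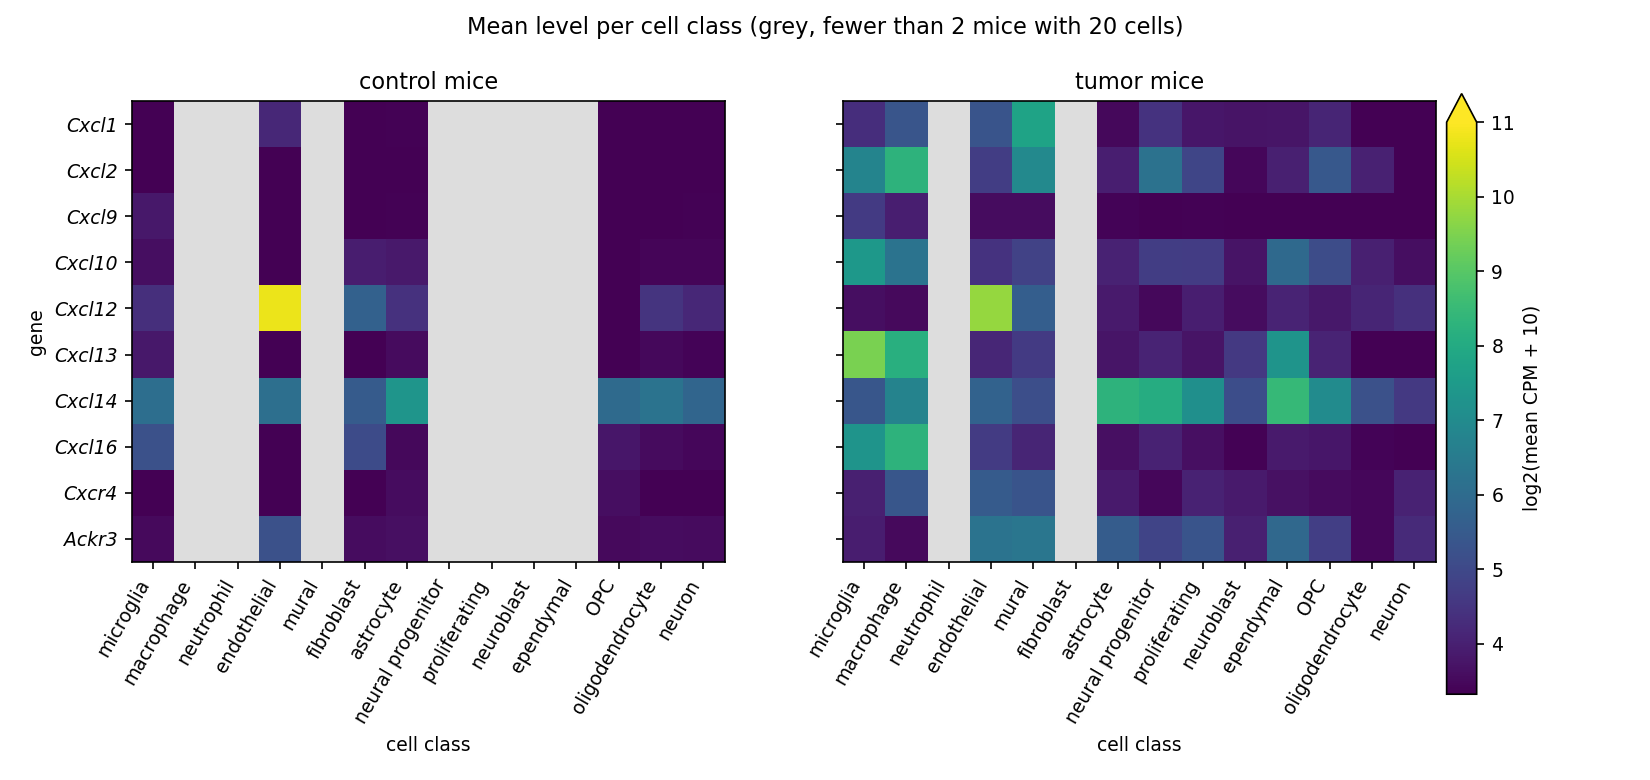
Mean level of each gene per class of cells in control mice (left) and tumor mice (right), as log2(mean CPM + 10) in colour, with classes on the horizontal axis and genes on the vertical axis. Grey fields had fewer than 2 mice with 20 cells. Cxcl16 is highest in microglia-like and macrophage-like cells of tumors, and Cxcl12 in endothelial-like cells of both groups.

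Microglia-like cells, the resident macrophages of the brain, held more Cxcl10 and Cxcl16 in tumors than in controls, and Cxcl14 did not pass the test. Controls gave 95 to 154 such cells and tumors 194 to 324. Different clusters held them: 493 of the 495 control cells lay in 1 cluster, which held 5 of the 1341 tumor cells, and the other tumor cells lay in 8 clusters. Of 8261 genes tested, 3402 passed (41.2%, with 18.8% higher and 22.4% lower). Of the 10 CXC genes, Cxcl10, Cxcl14 and Cxcl16 passed the filter on low counts, Cxcl10 only through its counts in tumors, so the number that were higher supports nothing about the family. The other 7 are described by their values.

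Cxcl10 had 2, 1, 0 and 0 UMIs in the microglia-like cells of controls 1 to 4. In tumors 1 to 5 it had 7, 590, 200, 193 and 124 UMIs, or 11.3, 421.1, 107.1, 166.9 and 101.3 CPM. Every tumor was above the highest control, at 6.58 CPM, and tumor 1 was close to it. Its log2 fold change was 6.78 ± 1.17 (SE), with an edgeR adjusted p of 0.000601. It was 7.94 without control 1, and when any of tumors 2 to 5 was left out the gene did not pass the filter on low counts. With no filter the edgeR adjusted p was 7.63e-08. The mean tumor level of 162 CPM was 68.7 and 92.02 CPM at Leiden resolutions of 0.5 and 2.0 and 101 CPM with cells gated by markers, it was 96.6 CPM without tumor 2, and the log2 fold changes at these resolutions were 5.54 and 5.30. By limma voom it was 5.73 and did not pass (adjusted p = 0.159).

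Cxcl16 was at 19.7, 34.6, 27.1 and 27.9 CPM in microglia-like cells of controls and 67.7, 187.7, 80.3, 213.6 and 187.9 CPM in those of tumors. All tumors were above all controls, with a log2 fold change of 2.86 ± 0.44 (SE) and an edgeR adjusted p of 0.000303. In tumors 1, 3 and 5 these cells held 42 of 70, 150 of 179 and 230 of 275 Cxcl16 UMIs of the library. In tumors 2 and 4 they shared them with macrophage-like cells, which were at 314 and 288 CPM.

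Cxcl14 was at 49.4, 57.7, 69.2 and 60.2 CPM in microglia-like cells of controls and 33.9, 37.1, 8.03, 49.3 and 30.2 CPM in those of tumors. Each tumor was below every control, control 1 and tumor 4 by a narrow margin. Its log2 fold change of -0.48 ± 0.42 (SE) did not pass the test (edgeR adjusted p = 0.398). It was 0.16 with a mitochondrial limit of 10% and 0.41 with cells gated by markers one by one. In both groups these values were below those of the free RNA.

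Cxcl13 differed most among the tumors in these cells. It had 13, 143, 11, 3873 and 6 UMIs in tumors 1 to 5, and 2, 5, 0 and 0 in controls 1 to 4. Tumor 4 was at 3350 CPM, and the next, tumor 2, at 102 CPM. In tumor 4 the UMIs lay in 160 of 194 microglia-like cells (median depth 6074 UMIs), against 262 of 2969 neural-progenitor-like cells of the same tumor (6686 UMIs). Of the other classes of tumor 4, macrophage-like cells were at 558 CPM and ependymal-like cells at 294.65 CPM, where 5 of 125 cells held 95.7% of the 235 UMIs. Neuroblast-like, mural-like, endothelial-like, oligodendrocyte-precursor-like and neural-progenitor-like cells were at 56.0, 43.6, 38.4, 31.4 and 20.9 CPM. Each of these was below the 171.5 CPM of that library's free RNA, whose part was not tested. Cells of unnamed clusters were at 722 CPM.

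Cxcl2 had 0 UMIs in the microglia-like cells of all controls and 2, 238, 247, 222 and 8 in those of tumors 1 to 5. Tumors 2, 3 and 4, at 169.8, 132.2 and 192 CPM, were far above tumors 1 and 5, at 3.22 and 6.54 CPM. Cxcl1 had 0, 10, 18, 38 and 0 UMIs in tumors 1 to 5, and none in controls. Cxcl9 was at 6.58, 9.61, 0 and 0 CPM in controls and 3.22, 17.8, 37.5, 7.78 and 7.35 CPM in tumors, and the groups overlapped. With no filter on low counts, over 19269 genes, Cxcl1, Cxcl2, Cxcl9, Cxcl13 and Cxcr4 were higher and Cxcl12 and Ackr3 did not pass (edgeR adjusted p = 0.00435, 4.01e-06, 0.00884, 7.95e-05, 0.00317, 0.138 and 0.0906). The Cxcl9 call rests on few cells, with 65 of the 70 UMIs of tumor 3 in 1 cell, and the tumor mean of 14.7 CPM was 4.64 and 5.76 CPM at Leiden resolutions of 0.5 and 2.0, against a control mean of 4.05 CPM.

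The receptors were low in microglia-like cells. Cxcr4 had 0 UMIs in all controls and 1, 6, 27, 9 and 2 in tumors 1 to 5. Ackr3 had 0, 1, 0 and 2 UMIs in controls and 1, 4, 21, 1 and 13 in tumors. Cxcr3, the receptor of Cxcl9 and Cxcl10, had 0 UMIs in these cells of all 9 mice.

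**Figure D4:**
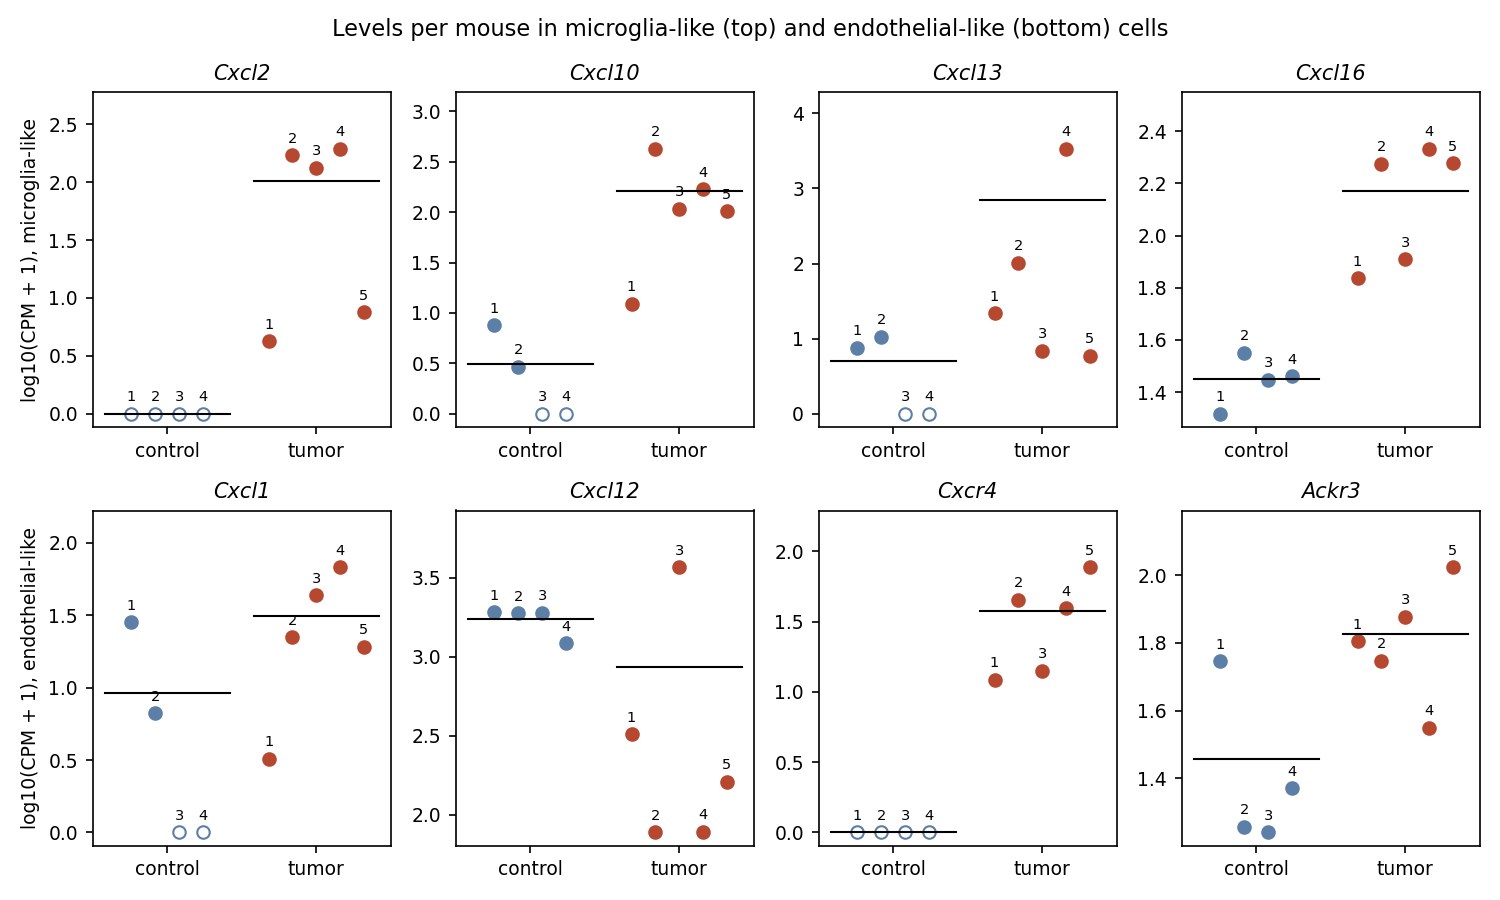
Levels per mouse as log10(CPM + 1) of Cxcl2, Cxcl10, Cxcl13 and Cxcl16 in microglia-like cells (top) and of Cxcl1, Cxcl12, Cxcr4 and Ackr3 in endothelial-like cells (bottom), with 4 control and 5 tumor mice numbered by replicate, lines at group means and open points for 0 UMIs. Tumor 4 stands at 3350 CPM of Cxcl13 in microglia-like cells, and tumor 3 alone lies above the controls for Cxcl12 in endothelial-like cells.

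Few microglia-like cells held most of the UMIs of some ligands. The 5 cells with most UMIs held 79.0%, 94.7% and 53.6% of the Cxcl2 UMIs in tumors 2, 3 and 4, and 63.2%, 89.5%, 66.3% and 71.0% of the Cxcl10 UMIs in tumors 2 to 5. For Cxcl16 they held 11.7% to 33.3% over the 5 tumors. For Cxcl13 they held 92.3% in tumor 2 and 21.0% in tumor 4. The plot of ranked cells shows these curves.

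**Figure D5:**
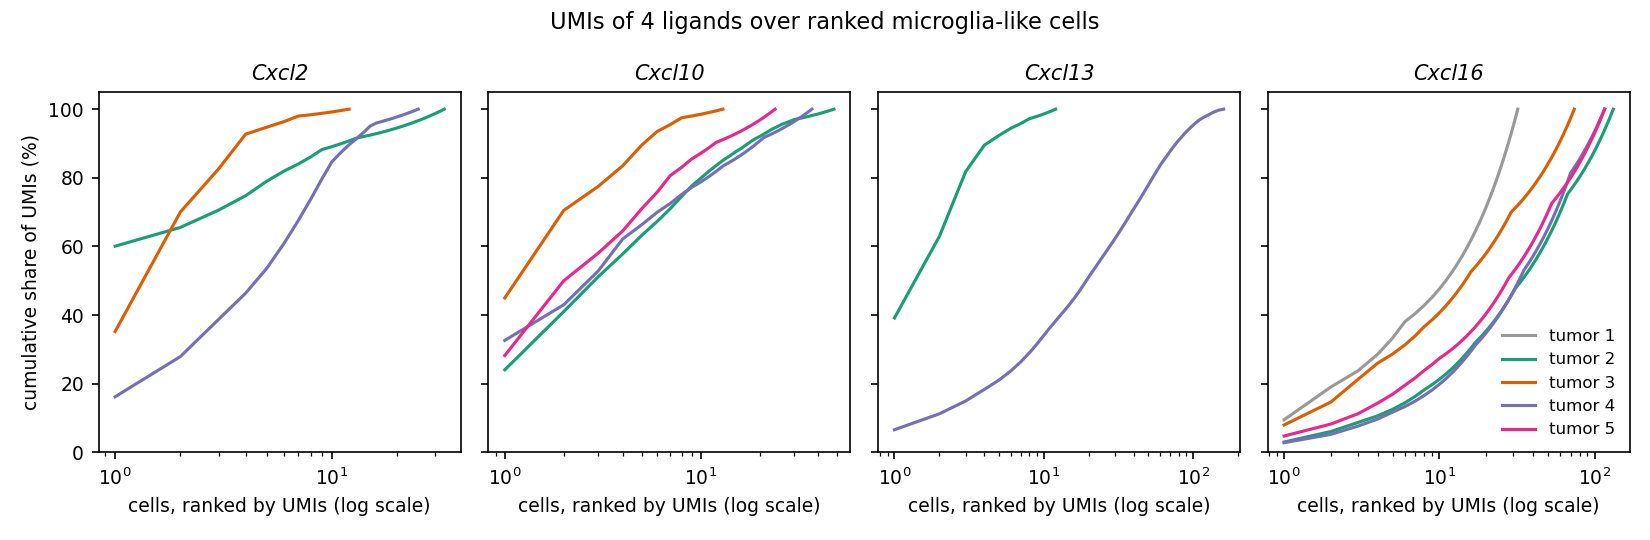
Cumulative share of UMIs (vertical axis, %) of Cxcl2, Cxcl10, Cxcl13 and Cxcl16 over microglia-like cells ranked by their UMIs of that gene (horizontal axis, log scale), with a line per tumor. Cxcl10 rises steeply in every tumor shown, with 63.2% or more of the UMIs in the first 5 cells of tumors 2 to 5, whereas Cxcl16 rises slowly, with at most 33.3%.

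A small microglia-like cluster of 35 cells, 18 of them from tumor 2, held 409 of the 590 Cxcl10 UMIs of that class in tumor 2, at 4665 CPM, and 156 of the 238 Cxcl2 UMIs, at 1779 CPM. In tumor 4 it held 120 of 193 Cxcl10 UMIs in 5 cells and in tumor 5 53 of 124 in 4 cells. In tumor 3 it was 1 cell, with 51 UMIs of Cxcl10 and 65 of Cxcl9. In tumor 2, 32 of 48 microglia-like cells with a Cxcl10 UMI also had a Cxcl16 UMI, which 132 of all 319 had. In tumor 4, 34 of 37 also had a Cxcl13 UMI, close to the 160 of all 194.

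Other values moved with the groups in microglia-like cells. The summed level of the 12 microglia markers was 15793 to 21968 CPM in controls and 35618 to 42371 CPM in tumors, and that of 10 neuron markers was 3571 to 4623 and 37.2 to 1019 CPM. Macrophage markers summed to 103 to 406 CPM in controls and 635 to 2726 CPM in tumors, and 9 of the 12 immediate early and heat shock genes were higher. Erythroid markers ranged from 173 to 219 CPM in controls and from 16.1 to 9200 CPM in tumors. Without 1 cluster of 145 cells whose leading genes held more erythroid than microglia markers, an alternative chosen after seeing the data, the log2 fold changes were 6.79 for Cxcl10 and 2.85 for Cxcl16 (edgeR adjusted p = 0.000668 and 0.000357). The part of the other markers in the CXC values was not tested.

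Of the genes that signal with these proteins, 10 of 12 could be tested in microglia-like cells. Rgs1, Gnai2, Adam17 and Arrb2 were higher in tumors, by 3.50, 1.01, 0.76 and 0.58 on the log2 scale (edgeR adjusted p = 0.00139, 0.00393, 0.00896 and 0.0451). Arrb1, like Arrb2 an arrestin that takes receptors off the surface, was lower, at -0.93 (edgeR adjusted p = 0.00415). Of the other family genes, 2 could be tested: Ackr1 was lower, at -2.22 (edgeR adjusted p = 0.00211), and Pf4 was at 0.99 and did not pass (edgeR adjusted p = 0.449). Ackr1 was at 19.3 to 33.1 CPM in microglia-like cells of controls and 0.865 to 6.45 CPM in those of tumors, in each library below its own free RNA, at 31.4 to 35.9 CPM in controls and 7.75 to 33.6 CPM in tumors.

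Endothelial-like cells, which line the vessels, held Ackr3 at a higher level in tumors, from 3 or 4 UMIs in each control, whereas Cxcl12 and Cxcl14 did not pass the test. Controls gave 29 to 37 such cells and tumors 126 to 190. Of 7129 genes tested, 1923 passed (27.0%, with 13.6% higher and 13.3% lower). Of the 10 CXC genes, Cxcl12, Cxcl14 and Ackr3 passed the filter on low counts. Ackr3, with 14 UMIs in all controls, passed it only through the tumors, so its call supports nothing about the family.

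Cxcl12 was at 1914, 1887, 1896 and 1218 CPM in endothelial-like cells of controls. In tumors it was at 322, 76.1, 3686, 76.9 and 160 CPM. Tumors 1, 2, 4 and 5 were below every control and tumor 3 was above every control. The difference of -0.88 ± 0.94 (SE) on the log2 scale did not pass (edgeR adjusted p = 0.520). Without tumor 3 it was -3.37 and passed (edgeR adjusted p = 0.000463). In tumor 3, the cells of this class held 3369 of the library's 3447 Cxcl12 UMIs, and the 5 highest cells held 26.2% of the class's UMIs. Mural markers, which belong to another Cxcl12-making type, summed to 2481 to 3439 CPM in endothelial-like cells of controls and 35.0 to 2557 CPM in those of tumors, and their part was not tested.

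Ackr3 was at 54.7, 17.1, 16.4 and 22.5 CPM in endothelial-like cells of controls, from 3 or 4 UMIs each, and 62.7, 54.8, 74.4, 34.4 and 104 CPM in those of tumors. Tumor 4 lay below control 1, and otherwise the tumors were higher. The log2 fold change was 1.59 ± 0.44 (SE), with an edgeR adjusted p of 0.0182. It did not pass without control 2, 3 or 4, at 1.46, 1.46 and 1.57 (edgeR adjusted p = 0.0648, 0.0612 and 0.0590), nor by limma voom, at 1.53 (adjusted p = 0.154).

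Cxcr4 had 0 UMIs in the endothelial-like cells of the 4 controls and 5, 29, 12, 38 and 50 in those of tumors 1 to 5, or 11.2, 44.1, 13.1, 38.4 and 75.6 CPM. It did not pass the filter on low counts. With no filter, over 18245 genes, it was higher in tumors (edgeR adjusted p = 4.93e-05), as were Cxcl1, Cxcl2, Cxcl10 and Cxcl16 (edgeR adjusted p = 0.00842, 0.00483, 0.0237 and 0.00358), whereas Cxcl9 and Cxcl13 did not pass (edgeR adjusted p = 0.348 and 0.129). Some of these counts lay in few cells. Tumor 4 held 35 of the 50 Cxcl10 UMIs of this class in tumors, 85.7% of them in 5 cells. Its 5 highest cells held 93.9% of its 33 Cxcl2 UMIs. For Cxcl1 they held 94.9% of 39 UMIs in tumor 3 and 66.7% of 66 in tumor 4. Controls gave 29 to 37 such cells, so low levels in them could go unseen. In these cells Cxcl10 was below the free RNA of its library in tumors 1, 2, 3 and 5, and Cxcl16 in tumors 2, 3 and 4. Free RNA of tumors 1 to 5 held 1.14, 28.1, 10.7, 26.2 and 7.75 CPM of Cxcl16. The part of free RNA in these values was not tested. In tumor 5 this class held 50 of the library's 88 Cxcr4 UMIs. Of the endothelial-like cells of tumor 3, 133 of 190 had a Cxcl12 UMI, a share close to that among cells with an Ackr3 UMI, 36 of 48.

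Cxcl1 was at 27.3, 5.68, 0 and 0 CPM in endothelial-like cells of controls, from at most 2 UMIs, and 2.24, 21.3, 42.7, 66.8 and 18.1 CPM in tumors. Tumors 1, 2 and 5 lay within the control range and tumors 3 and 4 above it, and with no filter on low counts the difference was 2.92 on the log2 scale. Cxcl14 was at 41.0, 79.6, 38.2 and 78.6 CPM in controls and 33.6, 25.9, 6.56, 33.4 and 116 CPM in tumors. Its log2 fold change of -0.40 ± 0.63 (SE) did not pass (edgeR adjusted p = 0.674), with tumor 5 highest and the other tumors below every control. Without tumor 5 it was -1.24 (edgeR adjusted p = 0.0702). In each library Cxcl14 was lower in these cells than in the free RNA. Cxcl16 had 0 UMIs in controls and 8, 6, 8, 21 and 12 in tumors 1 to 5.

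Among the partner genes, 8 could be tested in endothelial-like cells, and Gnai2 and Adam10 were higher, by 1.54 and 0.70 on the log2 scale (edgeR adjusted p = 0.00129 and 0.0474). Ackr1 was at 0, 5.68, 0 and 28.1 CPM in controls and 96.3, 50.2, 63.5, 6.07 and 4.54 CPM in tumors, and its log2 fold change of 2.25 did not pass (edgeR adjusted p = 0.161). Of 9 immediate early and heat shock genes tested, 8 were higher in this class. Erythroid markers summed to up to 15510 CPM in controls and 65834 CPM in tumors. Macrophage markers summed to 369 to 595 CPM in endothelial-like cells of controls and 1424 to 1666 CPM in those of tumors, without overlap, and neuron markers to 2480 to 3158 and 61.7 to 777 CPM. Macrophage-like cells hold Cxcl16 and Cxcr4. The part of these markers was not tested.

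Astrocyte-like cells held more Cxcl14 in tumors. Ackr3 was also higher, but with 5 UMIs in all controls it passed the filter on low counts only through the tumors. The other 8 CXC genes did not pass it. The comparison used 4 controls, with 104 to 166 cells, and tumors 1, 2, 3 and 5, with 141 to 735, since tumor 4 had 11. Of 8105 genes tested, 2960 passed (36.5%, with 18.8% higher and 17.7% lower). Different clusters held most of this class in controls and in tumors, the tumor cluster was led by genes such as Dlk1 and Tnnt3, and the class held 18 fusion UMIs. Its astrocyte markers summed to 6362 to 8193 CPM in controls and 6182 to 11678 CPM in the 4 tumors. Markers of other cells moved with the groups: ependymal markers summed to 37.6 to 53.1 CPM in controls and 366 to 598 CPM in tumors, neuron markers to 3598 to 5067 and 421 to 1299 CPM, and erythroid markers to 216 to 1596 and 14.5 to 3762 CPM. Ependymal-like cells of the 2 tumors with at least 20 of them held Cxcl14 at 229 and 454 CPM and Ackr3 at 99.4 and 1.25 CPM. The part of these markers in the class's values was not tested.

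Cxcl14 was at 124, 152, 184 and 140 CPM in astrocyte-like cells of controls and 230.5, 269, 304 and 401 CPM in those of tumors 1, 2, 3 and 5. The groups did not overlap, with a log2 fold change of 1.03 ± 0.22 (SE) and an edgeR adjusted p of 0.00172. The tumor mean of 301 CPM was 563 CPM at a Leiden resolution of 2.0, where the log2 fold change was 1.94 (edgeR adjusted p = 1.53e-05), and 558 CPM with a mitochondrial limit of 10%. Ackr3 was at 0, 3.27, 3.96 and 2.30 CPM in controls, from 5 UMIs in all, and 31.7, 69.5, 18.4 and 28.8 CPM in tumors. All tumors were above all controls, with a log2 fold change of 3.61 ± 0.61 (SE) and an edgeR adjusted p of 0.000352. Gnai2 and Hmgb1 were higher among the 7 partner genes tested (1.75 and 1.00 on the log2 scale, edgeR adjusted p = 1.82e-05 and 0.000777), and 2 of the 5 immediate early and heat shock genes tested were higher. With no filter, over 19905 genes, Cxcl2 also passed (edgeR adjusted p = 0.0178), and the other 7 CXC genes did not. Cxcl2 had 0 UMIs in controls and 7, 1 and 5 in tumors 2, 3 and 5. In each of these tumors it lay below the library's free RNA, which held 51.4, 8.32 and 8.30 CPM. The part of free RNA in this call was not tested.

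In neural-progenitor-like cells, a class with 0 cells in every control, Cxcl14 was at 284, 202 and 290 CPM in tumors 2, 3 and 4, the tumors with at least 20 such cells. UMIs of it were seen in 803 of 1140 cells of tumor 2 and 2304 of 2969 cells of tumor 4. In oligodendrocyte-like cells of tumor 2 they were seen in 16 of 115. Ackr3 was at 19.2, 31.7 and 9.01 CPM in the same 3 tumors. In control neuron-like cells Cxcl14 was at 43.8 to 48.8 CPM and Cxcl12 at 7.16 to 9.95 CPM. Both were below the free RNA of the controls, at 86.9 to 109.7 CPM of Cxcl14 and 10.5 to 14.5 CPM of Cxcl12.

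Unnamed clusters held many UMIs in tumor 5, in which they made up 1754 of 3638 cells. They held 805 of its 1095 Cxcl10 UMIs, at 108 CPM, and 1575 of these cells were in 1 cluster. The receptors were also found in mural-like cells, where Cxcr4 was at 50.5, 19.4 and 20.7 CPM and Ackr3 at 36.9, 155 and 18.7 CPM in tumors 2, 3 and 4. Macrophage-like cells of tumors 2 and 4 held Cxcr4 at 24.1 and 39.3 CPM and Cxcl10 at 58.2 and 72.1 CPM.

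The genes most like each CXC gene over 9 classes of tumor cells were ranked by Pearson correlation of log2(CPM + 10) averaged over tumors, a description over 9 points that share libraries. Nearest to Cxcl12 was Igsf5 (r = 0.997), nearest to Cxcl14 Clu (0.994), nearest to Cxcl16 Vsir (0.987) and nearest to Cxcl9 Il4i1 (0.998). Nearest to Cxcl1 was Stx11 (0.981), to Cxcl2 Derl2 (0.967), to Cxcl10 Liph (0.992) and to Cxcl13 Batf3 (0.989). For the receptors the nearest were Iqgap1 for Cxcr4 (0.986) and Stt3b for Ackr3 (0.973). Between the CXC genes themselves, r was 0.974 for Cxcl9 with Cxcl16, 0.947 for Cxcl10 with Cxcl16, 0.846 for Cxcl12 with Cxcr4 and 0.667 for Cxcl12 with Ackr3.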

How the data were processed

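Droplet-based 5′ single-cell libraries of 4 control brains and 5 EP ZFTA-RELA tumors were used. The authors counted UMIs per gene and barcode with Cell Ranger (6.1.2 in the matrix headers, 7 in the submitters' processing notes, which name mm10), and the deposited values are raw whole counts. Control 4 came with shorter feature and barcode lists than its matrix. Its mouse genes stand in the shared order, and its barcodes were taken by column. No deposited cell annotation was used here.

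Of the 10000 largest barcodes of each library, those holding 200 to 6000 genes stayed in, those of high mitochondrial share were removed by a Gaussian mixture (scikit-learn 1.9.0), and Scrublet in Scanpy 1.11.5 removed doublets at 0.8% per 1000 barcodes. Cells were clustered on 50 principal components and 15 neighbours by Leiden at resolution 1.0, without the genes of the lists, and clusters were named from fixed markers. Counts were summed per mouse and class with at least 20 cells and tested by edgeR 4.0.16 (R 4.3.3) after TMM scaling and filtering of low counts. The tests were tried on simulated counts first. The genes described are the 10 CXC genes, the 3 lists and the 3 nearest genes of each CXC gene with at least 50 UMIs in tumors, of which the nearest is given. The members and lists were chosen with earlier results of these data known. Promoter windows came from RefSeq (GRCm38.p6) and floors are 3 counts, for counting error only. Alternatives were DESeq2 1.42.0, limma 3.58.1 voom, DESeq2 size factors, no filter, each sample left out, a block for the replicate number, a mitochondrial limit of 10%, cells gated by 3 or more markers, and Leiden resolutions of 0.5 and 2.0.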

Additional observations from a re-analysis of the deposited data

Results flagged for a closer look

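In 45 groups of 4 or 5 mice, the highest or lowest value was compared with its neighbours by Dixon's criterion, and 10 values stood apart. Chance meets the criterion in about 1 of 20 groups if values are normally distributed, which CPM values need not be. Over all cells, Cxcl1 in tumor 2 was at 41.95 CPM, against 9.77 CPM in the next tumor. Cxcl2 in the same tumor was at 147.69 CPM, against 42.7 CPM in the next. Cxcl9 in tumor 3 was at 10.208 CPM, against 2.08 CPM, a value that rests on 70 UMIs. Cxcl12 in tumor 3 was at 502.67 CPM, against 30.0 CPM. Cxcl13 in tumor 4 was at 153.16 CPM, against 9.32 CPM.

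In microglia-like cells, Cxcl13 in tumor 4 was at 3349.6 CPM, against 102 CPM in the next tumor. In endothelial-like cells, Cxcl12 in tumor 3 was at 3685.8 CPM, against 322 CPM, and in control 4 it was at 1218.1 CPM, the lowest of the controls, against 1887 CPM. Cxcl13 in endothelial-like cells of tumor 4 was at 38.434 CPM from 38 UMIs, with 0 UMIs in those of the other tumors, and below the 171.5 CPM of that library's free RNA. Cxcl14 in endothelial-like cells of tumor 5 was at 116.44 CPM, against 33.6 CPM, and below the 132.2 CPM of that library's free RNA. The groups are small and share libraries, and the causes were not tested.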

How the results depend on the processing

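Over all cells the number of genes that passed was 10851 and ranged from 9125 to 12031 with a sample left out, in microglia-like cells from 3027 to 3883 and in astrocyte-like cells from 2435 to 3204. In endothelial-like cells it ranged from 1260 (without control 4) to 1776, against 1923. Cxcl12 over all cells turned from 2.26 on the log2 scale to -0.59 by limma voom and to -0.030 with the replicate number as a block, and ranged from -0.87 to 2.58 with a sample left out. Cxcl14 in microglia-like cells turned from -0.48 to 0.16 with a mitochondrial limit of 10% and to 0.41 with the per-cell marker gate, and none of these values passed. The mean Cxcl14 level in astrocyte-like cells of tumors, 301 CPM, was 563 CPM at a Leiden resolution of 2.0 and 558 CPM with the mitochondrial limit. In microglia-like cells of tumors, mean Cxcl9 was 4.64 and 5.76 CPM at resolutions of 0.5 and 2.0, against 14.7 CPM, and mean Cxcl13 was 322 CPM with the marker gate, against 697 CPM, within the spread between tumors. The causes were not tested. With a tumor left out, mean tumor levels ranged from 159 to 1061 CPM for Cxcl12 in endothelial-like cells and from 33.5 to 870 CPM for Cxcl13 in microglia-like cells.

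Deviations of same-numbered samples correlated at -0.003 to 0.050 over all cells and at -0.049 to 0.135 in microglia-like cells. In astrocyte-like and endothelial-like cells they correlated at -0.023 to 0.091 and -0.050 to 0.065. These values cannot tell whether the numbers pair the mice. With the replicate block 8844, 3077, 2397 and 1922 genes passed in all, microglia-like, astrocyte-like and endothelial-like cells. Under it Cxcl13 over all cells no longer passed (4.21), and Cxcl12 and Cxcl14 in endothelial-like cells did, at -2.57 and -1.25. DESeq2 gave no adjusted p for Cxcl13 over all cells. Without the filter on low counts 12223, 4473, 4131 and 2697 genes passed. No comparison of tumors with controls could be had for astrocyte-like cells with the mitochondrial limit or at a resolution of 0.5, or for endothelial-like cells with the mitochondrial limit or the marker gate, since too few samples of a group had 20 cells. Depth limits the control values of Cxcl1, Cxcl2 and Cxcr4, which rest on 10, 0 and 24 UMIs.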

Other observations

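Other platelet-associated CXC genes were also counted. Ppbp, known from platelets and their precursors, had 102 UMIs in tumor 3, 82 of them in microglia-like cells (43.9 CPM), and 0 to 11 UMIs in each of the other 8 libraries. Pf4, which macrophages also make, was not particular to that tumor: it had 619, 418 and 401 UMIs in tumors 2, 3 and 4. In microglia-like cells Pf4 was at 85.7 CPM in tumor 3, at 0 to 33.1 CPM in controls and at 0 to 30.7 CPM in the other tumors.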
